A study of Planococcus citri with 8 samples.

Results

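Transposable elements are stretches of DNA that copy or move themselves within a genome, and the genes described here are the *P. citri* gene models whose protein carries a domain typical of such elements. They were taken from the annotated gene models by their InterPro entry alone: an integrase catalytic core (IPR001584), a reverse transcriptase domain (IPR000477), a Pao retrotransposon entry (IPR008042) or a DNA/RNA polymerase superfamily entry (IPR043502), or any entry whose description holds the words transposase, retrotransposon, reverse transcriptase or integrase. In this way 263 of 17669 annotated gene models were selected, and IPR043502 contributed 0 of them. The annotation lists 1 entry per gene model and holds only genes with more than 1 CPM (counts per 1000000) in at least 3 of the 8 libraries, so weakly transcribed elements are not among the 263. The pools of 1 group are enough to pass, so a gene nearly absent from the other group can be included. A domain of this kind can sit in a mobile element, in a decayed copy or in a host gene, and the annotation does not tell these apart.

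RNA was sequenced from whole adult females of the citrus mealybug *P. citri*, with 4 pools of virgin and 4 pools of mated females of approximately 150 insects each. All came from 1 laboratory colony on lemons. Mated females were picked from the stock colony when their ovisacs were present, and virgin females came from separate lemons from which male cocoons had been removed, so mating, egg laying and rearing cannot be told apart. The pools carry the numbers of the labels (virgin replicates 2, 3, 5 and 6, mated replicates 8, 9, 10 and 11). In whole insects fewer cells of a type and less RNA per cell cannot be distinguished.

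Retrotransposons move through an RNA copy. Those with long terminal repeats (LTR) encode a gag protein that packages the RNA, a reverse transcriptase that turns it into DNA and an integrase that inserts the DNA, and they include the Copia and Pao groups. Elements without such repeats also carry a reverse transcriptase. DNA transposons instead move as DNA by means of a transposase, and the mutator-like (MULE) and Harbinger groups are examples. In animals, transcripts of such elements are targets of small RNA pathways in which Piwi and other Argonaute proteins act.

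By entry, the 263 genes fall into 6 classes. There are 86 integrase core genes and 64 with the reverse transcriptase domain, which occurs in elements with and without LTR. The Copia-type class holds 46 genes, 35 with the RNA-dependent DNA polymerase entry (IPR013103) and 11 with a GAG-pre-integrase domain. The Pao class holds 23 genes, and the transposases of DNA transposons 38, of which 19 carry a MULE domain and 9 a Harbinger-derived nuclease domain. The last 6 genes carry a retrotransposon gag domain (4 genes) or the integrase catalytic domain of tyrosine recombinases (2 genes). They lie on 234 scaffolds of the Pcitri.v1 assembly, 207 of which hold a single one.

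Total counts were between 29667566 and 50301861 per library. After scaling, 1 count was worth 0.0208 to 0.0327 CPM. Where no read was counted (0), a level of up to 3 counts, equal to 0.0624 to 0.0982 CPM, is possible from counting error alone. Virgin replicate 2 stood apart from the other virgin pools. Across all tested genes its log2 levels (CPM + 0.5) had a mean Pearson correlation of 0.929 with the remaining virgin and 0.942 with the mated libraries, whereas across the 263 genes the values were 0.905 and 0.816. These correlations run across genes within libraries and describe these libraries only. Only uniquely mapped read pairs were counted, so elements with near-identical copies lose reads and their values are uncertain.

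Of the 263 genes, 72 were higher and 53 lower in virgin than in mated females, and 138 did not pass (edgeR quasi-likelihood test, two-sided, adjusted p under 0.05 over all 21179 tested genes). The shares were 27.4% and 20.2%, where all tested genes had 26.4% and 21.3% and the annotated ones 27.7% and 22.4%, so as a whole the element genes were called about as often as other genes. All 263 passed the expression filter. Their median log2 fold change (log2FC, virgin over mated) was 0.04, where that of all tested genes was 0.03. In 106 of them the virgin and mated libraries did not overlap, 56 with the virgin and 50 with the mated pools above, and the share without overlap was 43.2% among all tested genes and 45.5% among the annotated ones. Without virgin replicate 2 there were 75 higher and 72 lower, where the shares among all tested genes were 31.4% and 30.6%. Without mated replicate 10 the number of higher genes was 47, with a share of 19.5% among all tested genes.

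The element genes were transcribed at low levels. Their median level was 4.76 CPM, against 9.81 CPM for all tested genes and 15.9 CPM for the annotated ones. A mean under 10 CPM was found for 182 of them. Of the 14 with at least 50 CPM, 2 were higher and 5 lower in virgin females. The shares among all tested genes of that level were not computed, so these counts have no comparison. Pools of the same group varied more in these genes than in others. The median coefficient of variation was 29.1% in virgin and 21.8% in mated females. For all tested genes it was 27.4% and 16.3%, and for the annotated ones 24.2% and 13.4%. Genes of like level were not compared. Without replicate 2 the virgin value was 20.5%, that of all tested genes 16.5% and that of the annotated ones 14.2%. This replicate was the lowest virgin pool in 47 of the 72 higher genes (65.3%, where the share was 78.7% for all higher genes) and the highest in 27 of the 53 lower ones (50.9%, against 67.0%). Calls held under each of the 17 settings run for 44 higher and 38 lower genes.

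Differences were uneven in size. Differences beyond 3 log2 units were found for 13 genes on the mated side and 1 on the virgin side, where 3.39% of all tested genes were called lower and 3.33% higher by that much (2.97% and 3.44% of the annotated ones). Beyond 2 log2 units there were 20 lower and 12 higher genes, with 5.45% and 9.85% of all tested and 4.76% and 10.1% of the annotated genes past this size. The 13 strongly mated-biased genes comprised 4 integrase core, 3 Pao, 2 reverse transcriptase, 2 transposase and 2 gag genes. Their mean level in mated females was between 1.77 and 265 CPM (median 7.05), and mated replicate 10 held the highest level in 10 of them. This library was the highest mated pool in 23 of all 53 lower element genes (43.4%) and in 44.1% of all lower genes. Each of the 13 genes was called under all 17 settings, and in each the virgin and mated pools did not overlap. They were picked by call and size in these same libraries, so this is a description and no further support. Several of them, such as g16994 and g25536, were above 1 CPM in mated pools only and were selected through these pools. The 12 genes higher by more than 2 log2 units had mean levels of 1.40 to 18.5 CPM in virgin females (median 2.76), with virgin replicate 2 the lowest virgin pool in 9 of them, and 9 were called under all settings.

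**Figure D1:**
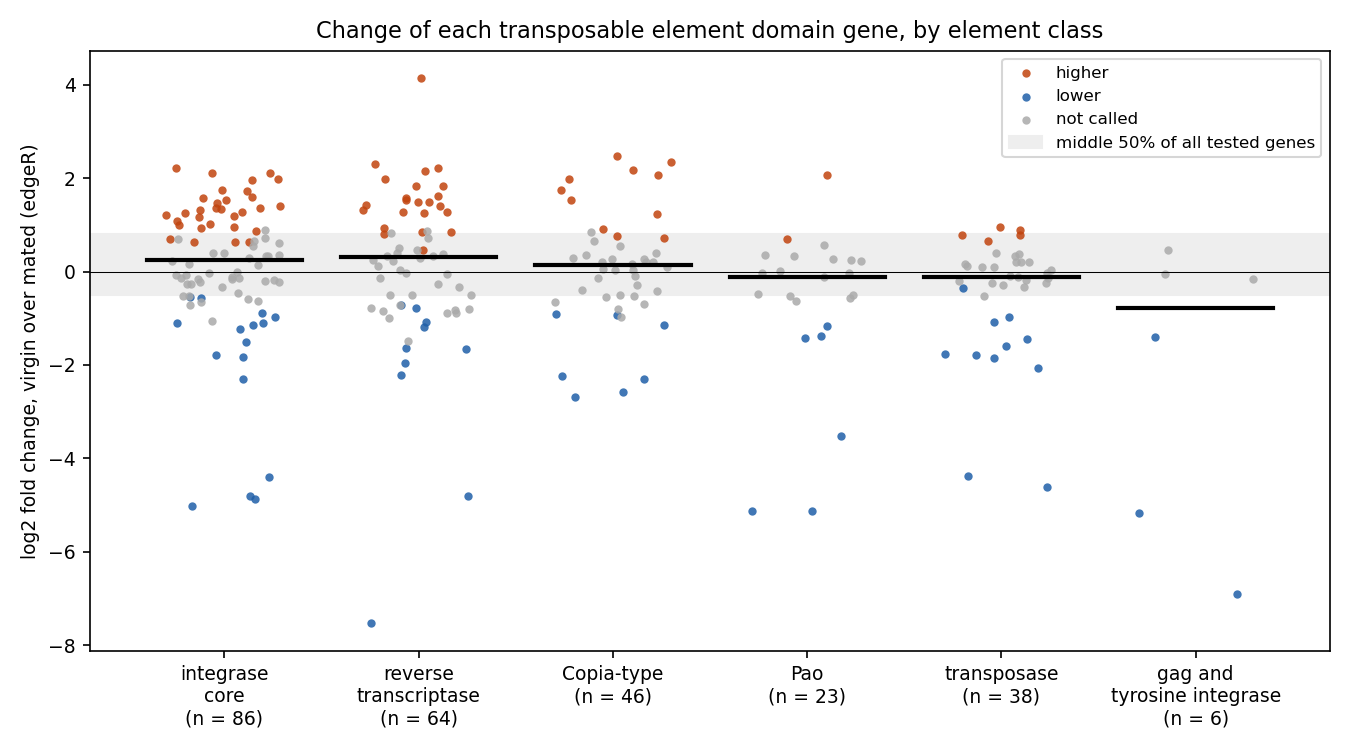
Each point is 1 of the 263 genes, placed by element class (horizontal axis) and by its log2 fold change, virgin over mated females (vertical axis), and coloured by its call at an adjusted p under 0.05. Black lines are class medians and the grey band spans the middle 50% of all tested genes; the points below -3 number 13, and a single point lies above 3.

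The reverse transcriptase class had 23 higher and 10 lower genes (35.9% and 15.6%, against 26.4% and 21.3% of all tested genes), with a median log2 fold change of 0.31. Pools did not overlap in 12 of its genes with the virgin and in 11 with the mated pools above. Of all tested genes 22.1% and 21.1% were of these kinds. Under all 17 settings 10 genes of the class were called higher and 6 lower. The gene with the largest difference of all element genes, g21986 (scaffold PCITRI_00088), was lower in virgin females. It stood at 5.51, 0.131, 0.0258 and 0.0522 CPM in virgin replicates 2, 3, 5 and 6 and 254, 203, 395 and 207 CPM in mated replicates 8, 9, 10 and 11. In counts this was 196, 4, 1 and 2 in the virgin libraries, so the signal in virgin females came nearly whole from replicate 2, while all mated pools lay far above. The level was 185-fold higher in mated females (edgeR log2FC -7.53, SE 1.49, adjusted p = 0.00472), and the log2 fold change was -11.92 without virgin replicate 2.
Gene g34889 (PCITRI_00784) was the other strongly mated-biased member, with 0.337, 0.982, 0.335 and 0.835 CPM in the virgin pools and 13.7, 7.63, 41.2 and 7.27 CPM in the mated pools. Mated replicate 10 was the highest by a wide margin, yet the lowest mated pool was above each virgin pool (edgeR log2FC -4.81, SE 0.74, adjusted p = 0.00206, and log2FC -3.96 without mated replicate 10). A weaker difference on the same side was that of g139 (PCITRI_00002), at 0.457 ± 0.139 CPM over the virgin against 1.77 ± 0.654 CPM over the mated pools (edgeR log2FC -1.96, SE 0.37, adjusted p = 0.00398).
On the virgin side, g11407 (PCITRI_02913) had 16.8, 32.8, 29.2 and 31.9 CPM in the virgin pools and 11.5, 9.21, 9.70 and 9.15 CPM in the mated pools. The virgin pools were 2.80-fold higher on average and did not overlap with the mated ones, although virgin replicate 2 was near to them (edgeR log2FC 1.49, SE 0.22, adjusted p = 0.00188). Gene g1392 (PCITRI_00026) stood at 8.36 ± 1.46 CPM over the virgin against 2.10 ± 0.828 CPM over the mated pools (edgeR log2FC 1.99, SE 0.31, adjusted p = 0.00213), and here virgin replicate 2 was close to the other virgin pools.
The number of higher genes in this class depended on single libraries, as did the share among all tested genes. Leaving out virgin replicate 3 or 5 gave 15 or 14 higher genes, with 21.2% or 22.1% of all tested genes higher. Leaving out mated replicate 10 or 11 gave 11 or 13, with 19.5% of all tested genes in both cases. The number of lower ones was 17 without virgin replicate 2 and 6 without virgin replicate 6. Of all tested genes 30.6% and 16.6% were lower in these fits.

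A further reverse transcriptase gene, g14824, lies on scaffold PCITRI_04220 between, by number, the gene models g14822 and g14825 of *trans*IDS12, an isoprenyl diphosphate synthase candidate, and had the largest difference on the virgin side. It had 0.618, 3.31, 1.70 and 1.70 CPM in the virgin pools and 0.0566, 0.122, 0.104 and 0.116 CPM in the mated pools, that is 22, 101, 66 and 65 counts against 2, 5, 5 and 4. Each virgin pool was above each mated pool, and the mean was 18.4-fold higher (edgeR log2FC 4.14, SE 0.56, adjusted p = 0.00157). Both *trans*IDS12 gene models differed in the same direction and were far more abundant. Gene g14822 was at 104 ± 33.6 CPM over the virgin against 2.18 ± 1.77 CPM over the mated pools (edgeR log2FC 5.57, SE 0.60, adjusted p = 0.00105) and g14825 at 106 ± 37.0 CPM over the virgin against 2.04 ± 1.45 CPM over the mated pools (edgeR log2FC 5.69, SE 0.55, adjusted p = 0.000904). The level of g14824 was 1.04 to 2.21% of that of g14825 in virgin pools and 2.94 to 8.33% in mated pools. In all 3 gene models virgin replicate 3 was the highest and virgin replicate 2 the lowest virgin pool. Whether reads from these transcripts contributed to the counts of g14824 was not tested.

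Integrase core genes, which mark LTR retrotransposons and related elements, were higher in virgin females in 31 cases and lower in 16 (36.0% and 18.6%, against 26.4% and 21.3% of all tested genes, median log2 fold change 0.25). Of those on the virgin side 3 exceeded 2 log2 units, while 5 did so on the mated side. Gene g31853 (PCITRI_00552) had 2.56, 2.06, 2.09 and 2.43 CPM in the virgin pools and 0.623, 0.877, 0.687 and 0.869 CPM in the mated pools. Its 4 virgin pools were close to each other and 2.99-fold above the mated ones (edgeR log2FC 1.58, SE 0.22, adjusted p = 0.00165). Gene g17618 (PCITRI_06489), with 13.6 ± 2.84 CPM over the virgin against 4.74 ± 0.920 CPM over the mated pools, was 2.88-fold higher (edgeR log2FC 1.52, SE 0.22, adjusted p = 0.00180).
On the mated side, g16994 (PCITRI_05857) was nearly absent from virgin females. It had 0.309, 0.262, 0.232 and 0.157 CPM in the virgin pools and 5.01, 5.87, 9.95 and 6.05 CPM in the mated pools, and was 28.0-fold higher in mated females (edgeR log2FC -4.80, SE 0.34, adjusted p = 0.000447). Gene g39960 (PCITRI_01240) varied more among the mated pools, with 0.730, 1.64, 1.29 and 1.98 CPM in the virgin pools and 27.2, 19.7, 58.9 and 12.7 CPM in the mated pools. Even its lowest mated pool was well above all virgin pools (edgeR log2FC -4.39, SE 0.55, adjusted p = 0.00133).
The other integrase genes past 3 log2 units, g17289 and g35671, are named after their values were seen. Gene g17289 (PCITRI_06127) had 0.0281, 0, 0.0774 and 0.104 CPM in the virgin pools and 1.5, 1.22, 3.31 and 1.48 CPM in the mated pools (edgeR log2FC -5.02, SE 0.65, adjusted p = 0.00144), close to the detection limit in virgin females. Gene g35671 (PCITRI_00841), with 0.140, 0.491, 0.103 and 0.209 CPM in the virgin pools and 6.0, 2.56, 15.4 and 3.22 CPM in the mated pools (edgeR log2FC -4.86, SE 0.77, adjusted p = 0.00227), was highest in mated replicate 10, as were g39960 and g34889.
The most abundant gene of the class, g7808 (PCITRI_02122), had 77.4, 61.4, 76.1 and 102 CPM in the virgin pools and 119, 117, 125 and 100.0 CPM in the mated pools. The groups overlapped, as virgin replicate 6 was above mated replicate 11, and the difference was small (edgeR log2FC -0.54, SE 0.16, adjusted p = 0.0228). This call was lost without virgin replicate 3 (adjusted p = 0.0531) or mated replicate 10 (0.0552), and the adjusted p was 0.00453 to 0.0552 over the settings run.

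**Figure D2:**
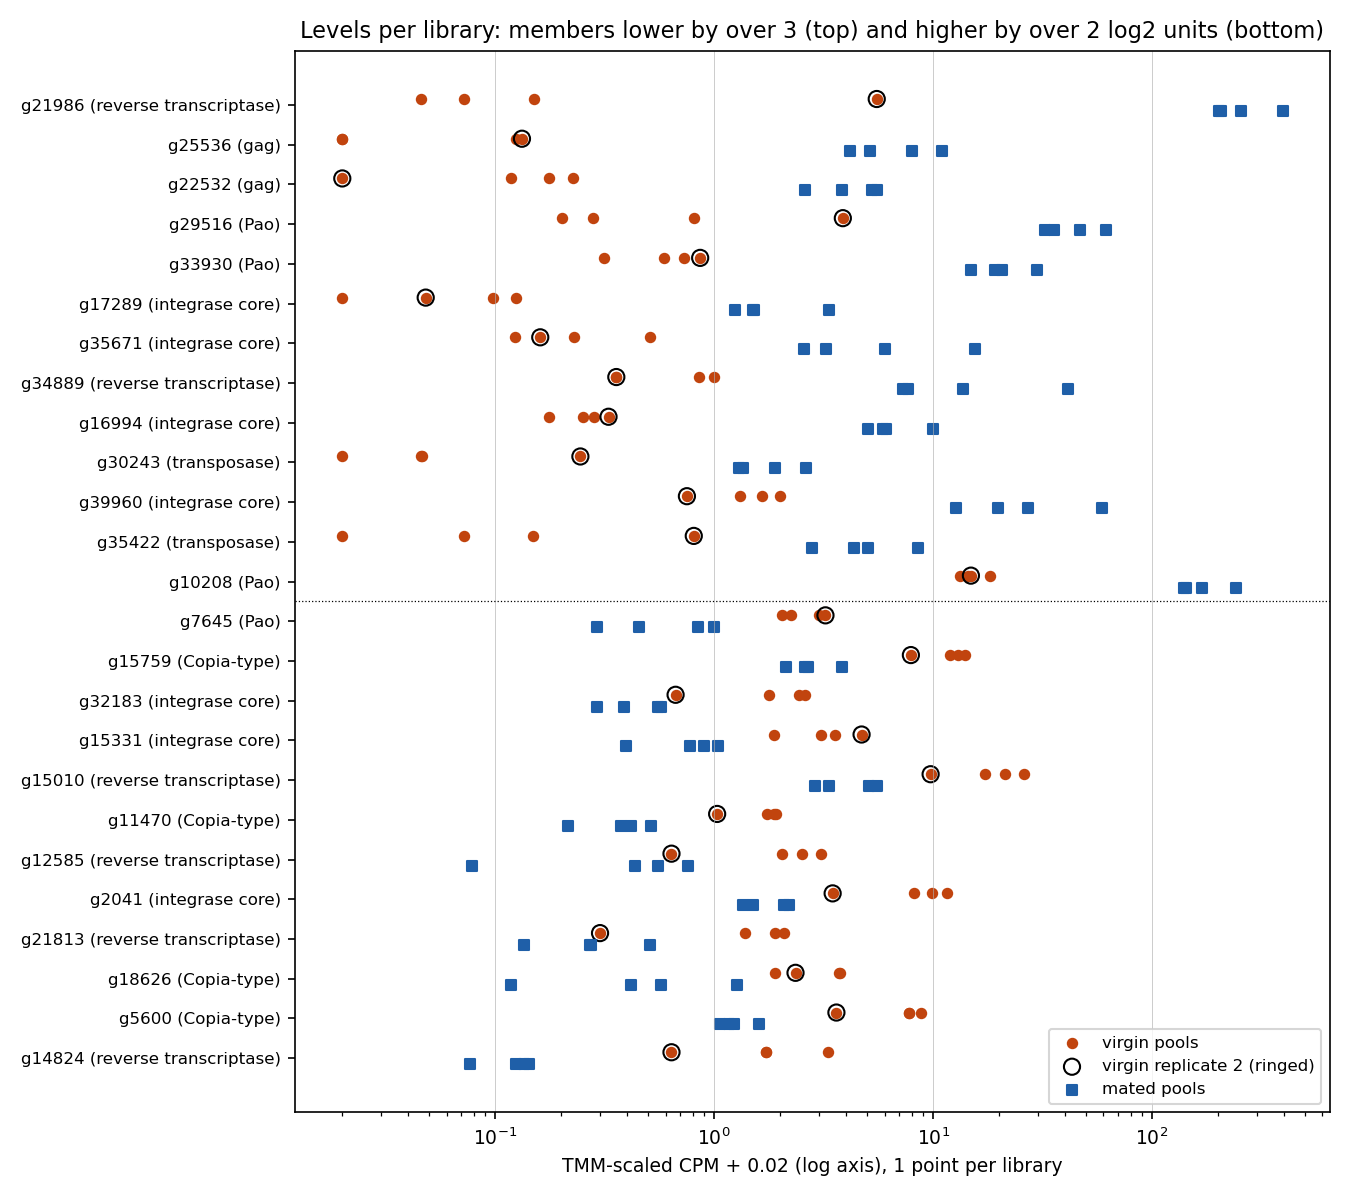
Levels of the 13 genes lower by more than 3 log2 units (upper part, blue squares to the right) and the 12 higher by more than 2 log2 units (lower part) in virgin females, 1 point per library, as TMM-scaled CPM plus 0.02 on a log axis. Circles are virgin pools, with virgin replicate 2 ringed, and squares are mated pools; in the upper part no gene has overlapping groups, and virgin replicate 2 is the highest virgin pool in 7 of the 13 genes.

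In the Copia-type class 11 genes were higher and 7 lower (23.9% and 15.2%, with 26.4% and 21.3% for all tested genes, median log2 fold change 0.13), and none (0) differed by more than 3 log2 units. It includes the most abundant element genes of all. Gene g16944 (PCITRI_05816), a GAG-pre-integrase gene, had 199.8, 243, 324 and 286 CPM in the virgin pools and 184, 261, 233 and 181 CPM in the mated pools. The groups overlapped and the difference did not pass (edgeR log2FC 0.29, SE 0.18, adjusted p = 0.213). Gene g24900 (PCITRI_00188), with the polymerase entry, had 285, 140.0, 98.4 and 131 CPM in the virgin pools and 244, 274, 287 and 229.6 CPM in the mated pools. Virgin replicate 2 was here at the level of the mated pools and the other virgin pools were below all of them, and the difference did not pass (edgeR log2FC -0.66, SE 0.30, adjusted p = 0.103). It passed without virgin replicate 2 (adjusted p = 0.000546) and with sample quality weights (limma, adjusted p = 0.000590), and the adjusted p was 0.000546 to 0.220 over the settings run.
Clear differences were found at lower levels. Gene g31027 (PCITRI_00501) had 43.1, 41.2, 48.9 and 54.9 CPM in the virgin pools and 14.5, 18.2, 9.37 and 13.6 CPM in the mated pools. It was 3.38-fold higher in virgin females, with virgin replicate 2 in the range of the other virgin pools (edgeR log2FC 1.76, SE 0.20, adjusted p = 0.00114). Gene g15759 (PCITRI_04817) was 4.19-fold higher, at 11.7 ± 2.68 CPM over the virgin against 2.79 ± 0.731 CPM over the mated pools (edgeR log2FC 2.06, SE 0.26, adjusted p = 0.00133).
The largest differences on the virgin side were those of g5600 (PCITRI_01749) and g18626 (PCITRI_08017). The former had 6.96 ± 2.30 CPM over the virgin against 1.25 ± 0.233 CPM over the mated pools (edgeR log2FC 2.47, SE 0.31, adjusted p = 0.00133). For the latter the values were 2.91 ± 0.946 CPM over the virgin against 0.572 ± 0.487 CPM over the mated pools (edgeR log2FC 2.35, SE 0.63, adjusted p = 0.0160), and it no longer passed when mated replicate 10 was left out (adjusted p = 0.0522, the highest of a range from 0.000706).
On the mated side, g8822 (PCITRI_02306), also a GAG-pre-integrase gene, had 4.16, 2.65, 2.66 and 1.59 CPM in the virgin pools and 13.6, 16.1, 20.1 and 21.7 CPM in the mated pools and was 6.46-fold higher in mated females (edgeR log2FC -2.69, SE 0.31, adjusted p = 0.00114). Gene g37399 (PCITRI_00990) had 2.01 ± 0.845 CPM over the virgin against 9.46 ± 2.57 CPM over the mated pools (edgeR log2FC -2.23, SE 0.35, adjusted p = 0.00220). The number of lower genes in this class was 11 without virgin replicate 2 and 4 without virgin replicate 6. Of all tested genes 30.6% and 16.6% were lower in these fits.

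In the Pao class 2 genes were higher and 6 lower (8.70% and 26.1%, against 26.4% and 21.3% of all tested genes), with a median log2 fold change of -0.11. The share of lower genes was thus near that of all tested genes. Its most abundant gene in mated females was g10208 (PCITRI_02601), with 14.9, 18.1, 14.3 and 13.2 CPM in virgin replicates 2, 3, 5 and 6 and 141, 143, 242 and 169.9 CPM in mated replicates 8, 9, 10 and 11. The virgin pools, replicate 2 included, were within a narrow range and every mated pool was several times above them. Mated females had an 11.5-fold higher level (edgeR log2FC -3.52, SE 0.21, adjusted p = 0.000437). The other Pao gene on the same scaffold, g10205, named for its position after its values were seen, was at 1.32 ± 0.410 CPM over the virgin against 1.91 ± 0.231 CPM over the mated pools and did not pass (edgeR log2FC -0.53, SE 0.26, adjusted p = 0.120).
Gene g33930 (PCITRI_00710) differed even more, from 0.602 ± 0.234 CPM over the virgin against 21.1 ± 6.19 CPM over the mated pools, a 35.0-fold higher level in the latter (edgeR log2FC -5.12, SE 0.37, adjusted p = 0.000455). The Pao gene g29516 (PCITRI_00417), named after its values were seen, had 3.85, 0.786, 0.258 and 0.183 CPM in the virgin pools and 35.8, 32.3, 61.6 and 46.7 CPM in the mated pools. As for g21986, virgin replicate 2 was above the other virgin pools, and all mated pools were far higher (edgeR log2FC -5.12, SE 0.93, adjusted p = 0.00354).
On the virgin side g7645 (PCITRI_02095) had 3.20, 2.03, 2.22 and 3.0 CPM in the virgin pools and 0.821, 0.975, 0.271 and 0.435 CPM in the mated pools. It was higher in every virgin pool than in any mated pool (edgeR log2FC 2.06, SE 0.41, adjusted p = 0.00510). Gene g18522 (PCITRI_07818) had 24.3 ± 7.20 CPM over the virgin against 14.9 ± 1.45 CPM over the mated pools, with overlapping groups (edgeR log2FC 0.71, SE 0.22, adjusted p = 0.0305), and its call was lost when any library other than virgin replicate 2 was left out (adjusted p = 0.0546 to 0.0874, between 0.00115 and 0.0874 over all settings). Thus 1 higher Pao gene remained in each of these 7 fits.

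Of the 4 gag genes, 3 were lower and 0 higher in virgin females, where 21.3% and 26.4% of all tested genes were. With 4 genes these counts describe single genes. Of the lower ones, 2 were close to absent from virgin females. These were above 1 CPM in mated pools only, so they were selected through the group where they are high. Gene g25536 (PCITRI_00217) had 0.112, 0, 0 and 0.104 CPM in the virgin pools and 7.98, 5.12, 10.9 and 4.14 CPM in the mated pools, with 4, 0, 0 and 4 counts in the virgin libraries. The virgin levels were thus at or near the limit that a count of 0 allows, and the fitted difference was large (edgeR log2FC -6.91, SE 0.78, adjusted p = 0.00113). Gene g22532 (PCITRI_00104) had 0, 0.0982, 0.206 and 0.157 CPM in the virgin pools and 5.55, 3.83, 5.25 and 2.58 CPM in the mated pools (edgeR log2FC -5.16, SE 0.65, adjusted p = 0.00133). The genes with a tyrosine recombinase-type integrase domain, 2 in number, did not pass, with log2 fold changes of -0.16 and -0.04.

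Among the transposase genes of DNA transposons 5 were higher and 11 lower (13.2% and 28.9%, with 26.4% and 21.3% for all tested genes, median log2 fold change -0.13), and those on the virgin side differed by less than 1 log2 unit. Of the 9 Harbinger genes, 6 were lower and 1 was higher. The higher one, g31261 (PCITRI_00517), named after its values were seen, had 7.11 ± 2.03 CPM over the virgin against 3.69 ± 0.738 CPM over the mated pools (edgeR log2FC 0.94, SE 0.25, adjusted p = 0.0148). The log2 fold changes of the 6 lower ones were between -4.60 and -1.44 (adjusted p = 0.00248 to 0.00896, edgeR), and their mean levels in mated females between 1.41 and 5.15 CPM. The median over all 9 was -1.77. The largest differences, of g30243 and g35422, are given after their values were seen. Gene g30243 (PCITRI_00455) had 0.225, 0, 0.0258 and 0.0261 CPM in the virgin pools and 1.27, 1.34, 1.87 and 2.61 CPM in the mated pools (edgeR log2FC -4.60, SE 0.76, adjusted p = 0.00263). Gene g35422 (PCITRI_00823) had 0.787, 0, 0.129 and 0.0522 CPM in the virgin pools and 2.77, 5.02, 4.33 and 8.49 CPM in the mated pools (edgeR log2FC -4.39, SE 0.97, adjusted p = 0.00733). In both, mated replicate 11 was the highest and virgin replicate 3 had no counts (0). Both were above 1 CPM in mated pools only, so they were selected through the group where they are high. The Harbinger gene with the highest level, g39159 (PCITRI_01153), also named afterwards, was at 23.7 ± 1.84 CPM over the virgin against 21.1 ± 1.53 CPM over the mated pools and did not pass (edgeR log2FC 0.17, SE 0.11, adjusted p = 0.224). The lower Harbinger genes were thus all weakly transcribed. Shares of all tested genes at such levels were not computed, so the counts and median of the Harbinger genes are a description. Among the 19 MULE genes 2 were higher and 4 lower, with a median of -0.08.
The lower gene with the smallest p was g14620 (PCITRI_04111), a MULE transposase gene with 0.843, 0.655, 0.696 and 0.600 CPM in the virgin pools and 2.72, 3.0, 2.79 and 3.30 CPM in the mated pools. Pools of the same group differed little, and the mated level was 4.23-fold higher (edgeR log2FC -2.07, SE 0.21, adjusted p = 0.000909). Gene g36418 (PCITRI_00898) was more abundant, with 8.86 ± 1.5 CPM over the virgin against 26.8 ± 4.16 CPM over the mated pools (edgeR log2FC -1.60, SE 0.17, adjusted p = 0.00107). On the virgin side, g38165 (PCITRI_01059) had 3.74 ± 0.533 CPM over the virgin against 2.19 ± 0.165 CPM over the mated pools (edgeR log2FC 0.77, SE 0.18, adjusted p = 0.0101) and g28999 (PCITRI_00386) 2.42 ± 0.221 CPM over the virgin against 1.41 ± 0.187 CPM over the mated pools (edgeR log2FC 0.78, SE 0.20, adjusted p = 0.0129).

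Summed over all 263 genes, the element genes held 3257 ± 119 CPM over the virgin against 3781 ± 301 CPM over the mated pools, or 0.326% and 0.378% of the scaled counts. Every mated pool (3507 to 4205 CPM) was above every virgin pool (3129 to 3395 CPM). Without g21986 and g10208 the sums were 3240.5 ± 117 CPM over the virgin against 3342 ± 191 CPM over the mated pools, and the pools of the groups overlapped. In the reverse transcriptase class the sum was 1.71-fold higher in mated females, at 432 ± 25.8 CPM over the virgin against 739 ± 110.1 CPM over the mated pools. By calls, 23 of its genes were higher and 10 lower in virgin females. Gene g21986 made up 35.9% of the class in mated females, and without it the ratio was 1.10. For the Pao class the ratio was 1.65, and 1.20 without g10208. Integrase core genes, with 1069 ± 64.2 CPM over the virgin against 997 ± 82.2 CPM over the mated pools, and Copia-type genes, with 875 ± 58.9 CPM over the virgin against 869.6 ± 70.3 CPM over the mated pools, had overlapping sums. These sums are a description and were not tested.

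**Figure D3:**
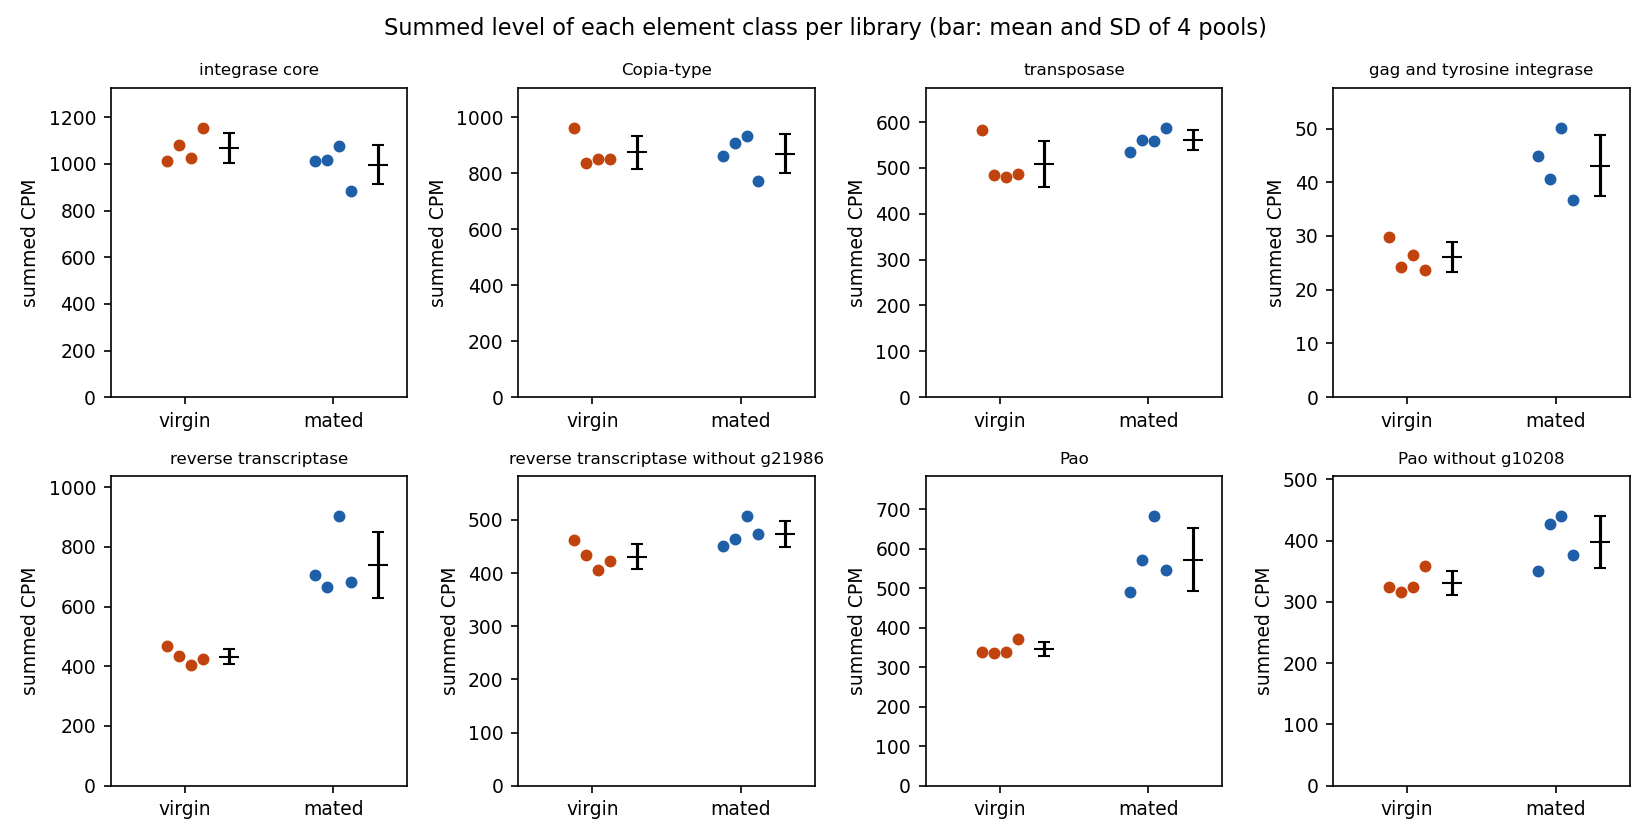
Summed TMM-scaled CPM of each element class per library (vertical axes, from 0) in virgin and mated females, with the mean and SD of 4 pools beside the points. The mated-to-virgin ratio of the reverse transcriptase class is 1.71 with g21986 and 1.10 without it, and that of the Pao class 1.65 with g10208 and 1.20 without it.

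Coordinates were not used here, and gene models of consecutive number on 1 scaffold were taken as neighbours. Of the tested gene models next to a lower element gene, 61.0% (25 of 41) were lower too, where the share next to any lower gene was 37.7%. Next to higher element genes 51.9% (28 of 54) were higher, against 45.8% next to any higher gene. Adjacent element genes were counted from each side, as were adjacent genes in the shares over all tested genes. These shares were not tested. The neighbour g21987 of g21986 was at a mean of 0.0140 CPM in virgin pools and of 7.22 CPM in mated pools (edgeR log2FC -8.71, SE 0.71, adjusted p = 0.000495). Neighbours of g16994 (g16993, edgeR log2FC -5.03, SE 0.78, adjusted p = 0.00214) and of g34889 (g34890, edgeR log2FC -5.06, SE 0.93, adjusted p = 0.00373) were lower as well. Around g139, the neighbour with a ribonuclease H domain, which in retrotransposons degrades the RNA strand during copying, was lower too (g140, edgeR log2FC -2.07, SE 0.39, adjusted p = 0.00396). The gag gene g22532 differed from its neighbour g22531, which was higher in virgin females (edgeR log2FC 1.78, SE 0.59, adjusted p = 0.0353). Of 11 tested neighbours of the 13 strongly mated-biased genes, 8 were lower and 1 was higher. The share next to other genes lower by this much was not computed, and the 37.7% is for lower genes of any size, so these counts have no comparison.
Among the element genes themselves, 18 pairs had consecutive numbers on 1 scaffold. In 6 of these pairs both were higher and in 1 both were lower, in 5 a single gene was called and in 6 neither, and no pair (0) was called in opposite directions. The reverse transcriptase gene g11407 and the integrase core gene g11406 (edgeR log2FC 1.25, SE 0.23, adjusted p = 0.00384) are such a pair. The same holds for the integrase core gene g19240 and the Copia-type gene g19241 (edgeR log2FC 1.53, SE 0.21, adjusted p = 0.00157), chosen after their values were seen, which lie beside a CCHC zinc finger gene that was also higher (g19239, edgeR log2FC 1.27, SE 0.23, adjusted p = 0.00343). The neighbour of the transposase gene g36418, with an MA3 domain of initiation factor eIF-4 gamma, was higher while g36418 was lower (g36417, edgeR log2FC 0.80, SE 0.17, adjusted p = 0.00574). Gene models of a pair can be parts of 1 element, and neighbours share scaffold and libraries, so these are not independent observations.

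**Figure D4:**
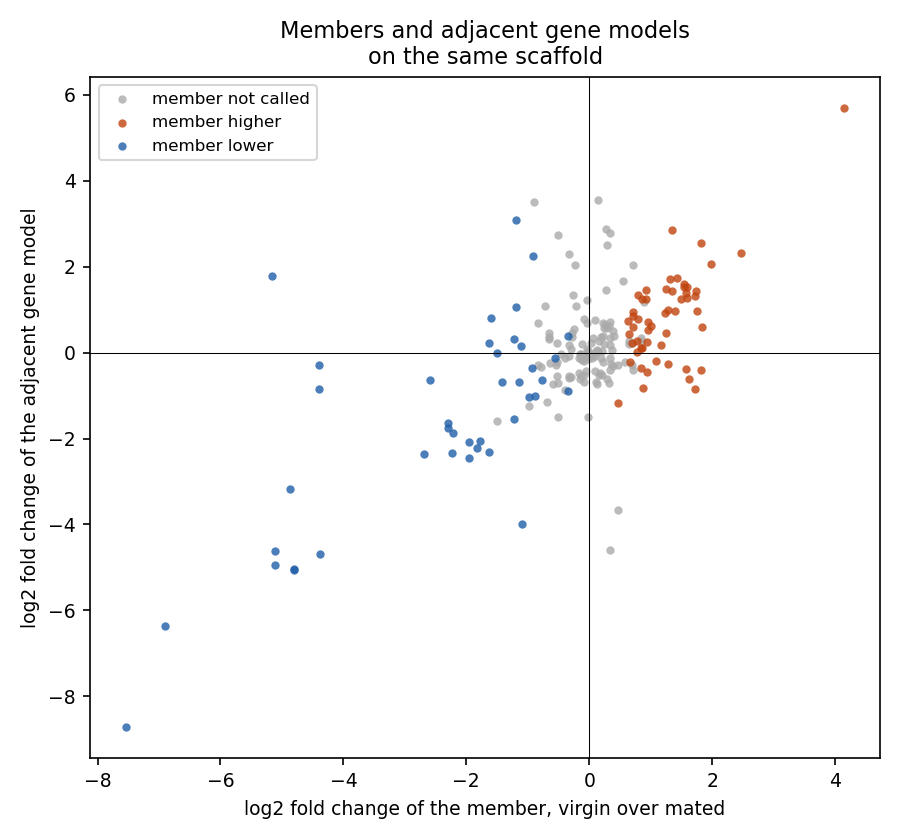
Log2 fold change (virgin over mated) of each element gene (horizontal axis) and of a tested gene model next to it on the same scaffold (vertical axis), 1 point per element gene and neighbour, coloured by the call of the element gene. Adjacent element genes give 1 point from each side. Points of lower element genes lie mostly in the lower left, where 25 of 41 neighbours were called lower.

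Genes with domains known from small RNA pathways, called silencing genes here, were counted for comparison. Their entries were for Piwi, PAZ, Argonaute linker, Tudor, ribonuclease III and double-stranded RNA-binding domains. Such a domain can also sit in proteins outside these pathways, and the annotation does not tell these apart. Of 43 such genes 4 were higher and 12 lower in virgin females (9.30% and 27.9%, against 26.4% and 21.3% of all tested genes), with a median log2 fold change of -0.11. Tudor domain proteins, some of which assemble Piwi complexes in other insects, numbered 12, with 6 lower, 1 higher and 5 not called. Gene g11535 (PCITRI_02954) had 43.7 ± 0.924 CPM over the virgin against 76.3 ± 4.25 CPM over the mated pools (edgeR log2FC -0.81, SE 0.08, adjusted p = 0.000908), and g25939 (PCITRI_00235) had 182 ± 10.7 CPM over the virgin against 132 ± 9.44 CPM over the mated pools (edgeR log2FC 0.47, SE 0.09, adjusted p = 0.00457).
The Argonaute linker gene g29660 (PCITRI_00425) had 122, 97.9, 103 and 103 CPM in the virgin pools and 191, 181, 204 and 199 CPM in the mated pools. All mated pools were above all virgin pools (edgeR log2FC -0.86, SE 0.10, adjusted p = 0.00114). Its neighbour by number, the Piwi domain gene g29661, named after its values were seen, was at 37.9 ± 5.85 CPM over the virgin against 62.0 ± 3.20 CPM over the mated pools (edgeR log2FC -0.71, SE 0.12, adjusted p = 0.00289). Both domains occur together in Argonaute proteins. Of the 5 Piwi domain genes 1 was lower, 1 was higher and 3 were not called. The higher one went the other way by more than any other gene of the list. This gene, g21083 (PCITRI_00060), had 62.9, 209, 248 and 202 CPM in the virgin pools and 49.4, 45.9, 40.0 and 31.3 CPM in the mated pools, with virgin replicate 2 between the groups (edgeR log2FC 2.11, SE 0.39, adjusted p = 0.00359). The number of higher genes of the list was 10 without virgin replicate 2, where 31.4% of all tested genes were higher.
Of 157 genes with other domains common in mobile elements, among them CCHC zinc fingers, DUF1759, RNase H and C2CH (THAP-type) zinc fingers, many of which also occur in host genes, 24 were higher and 33 lower (15.3% and 21.0%, against the same 26.4% and 21.3%). The number higher was 14 without mated replicate 11, where 19.5% of all tested genes were higher. The number lower was 58 without virgin replicate 2 and 21 without virgin replicate 3, where 30.6% and 16.2% of all tested genes were lower. DUF1759 genes, with a domain known from Pao-type elements, were higher in 4 and lower in 6 of 20 cases, CCHC zinc finger genes in 5 and 5 of 20 and RNase H genes in 3 and 3 of 14. For the endonuclease/exonuclease/phosphatase entry, which retrotransposons without LTR share with host enzymes, 4 of 17 were higher and 7 lower. Of the 54 C2CH-type genes, whose zinc finger is shared by P element transposase of *Drosophila* and host proteins, 3 were higher and 6 lower.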

How the data were processed

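Whole-female polyadenylated RNA of 4 virgin and 4 mated pools (approximately 150 insects, 100 mg each) was sequenced in paired-end mode with a library protocol described as strand-specific. The authors mapped trimmed reads to the Pcitri.v1 genome in CLC Genomics Workbench and deposited, for each gene model, the count of pairs with a unique position. Use of strand in the counting step is not stated in these sources, and overlapping and antisense genes are therefore uncertain. The submitters' processing notes name R 3.4.2, edgeR 3.20.9 and limma 3.34.9. InterPro entries came, as text, from the authors' deposited table of differential expression, whose fold changes and p-values were not used. The deposited log2 CPM values were not used either.

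Counts of 40620 gene models were filtered with filterByExpr (edgeR 4.0.16, R 4.3.3), given TMM factors and fitted by quasi-likelihood (glmQLFit, glmQLFTest) with condition as the term, over 21179 genes with Benjamini-Hochberg adjustment. Calls were made at an adjusted p of 0.05. The standard error (SE) is the size of the log2 fold change divided by the square root of F. Levels are counts per 1000000 (CPM) after TMM scaling (mean ± SD, n = 4). The pools are described as biological replicates. Alternatives were other scalings and filters, DESeq2 1.42.0, limma 3.58.1 (voom, with and without sample quality weights) and leaving out each library.

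Named genes are g10208 and g21986, per class and direction the 2 called genes with the smallest p and a mean of at least 1 CPM, the 5 most abundant, the 3 largest changes each way, those next to isoprenyl diphosphate synthase gene models, and 2 silencing genes each way. The members and lists were chosen with earlier results of these data known. Of 11 silencing entries 7 matched a gene, and of 20 entries of other element-associated domains 14. All 8 count columns were assigned to libraries.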

Additional observations from a re-analysis of the deposited data

Results flagged for a closer look

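In groups of 4 pools, a pool was singled out when its gap to the nearest other pool, as a share of the group's range, exceeded Dixon's critical value. This was examined for 86 groups. By chance alone, about 1 in 20 of the groups examined would be singled out. There were 5 among the 86, which is close to that rate, so their number is no result in itself. Class sums contain named genes, so the groups are not independent. Gene g21986 was at 5.51 CPM in virgin replicate 2 and at 0.0258 to 0.131 CPM in the other virgin pools. The summed reverse transcriptase class was at 902 CPM in mated replicate 10, against 667 to 704 CPM in the other mated pools. In virgin replicate 2 the Copia-type sum was 962 CPM (835 to 851 CPM in the others) and the transposase sum 583 CPM (481 to 486 CPM). The Pao sum of virgin replicate 6 was 372 CPM, with 335 to 339 CPM in the other virgin pools.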

How the results depend on the processing

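In 16 alternative settings, no element gene (0) was called in the direction opposite to that reported, and 44 higher and 38 lower genes were called under all of them. Of all tested genes 19.5% to 31.4% were higher and 15.8% to 30.6% lower when each library was left out in turn. The number of higher element genes was then between 47 and 75, and of lower ones between 40 and 72. By class these ranges were 11 to 23 higher and 6 to 17 lower for reverse transcriptase, 4 to 11 lower for Copia-type and 1 to 2 higher for Pao. For RNA silencing genes they were 4 to 10 higher and 9 to 16 lower, and for other element-associated domains 14 to 30 higher and 21 to 58 lower. The lower reverse transcriptase genes numbered 16 with DESeq2, where 25.6% of all tested genes were lower. With sample quality weights (limma) 17 reverse transcriptase and 11 Copia-type genes were lower, 11 silencing genes were higher and 19 lower, and 60 genes with other element-associated domains were lower. That fit called 34.0% of all tested genes higher and 32.5% lower. The cause of these differences was not tested. Upper-quartile factors gave 64 higher and 60 lower element genes, where 23.9% of all tested genes were higher and 25.2% lower. The scalings moved the median of all genes by less than 0.1 log2 units. Counts of genes without overlap and the summed levels were recomputed under 3 other scalings and without each library, a choice made after seeing the data. No paired analysis was possible because the groups have no replicate numbers in common. Genes near 1 CPM rest on few counts per library, which limits their precision.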
